A study of Homo sapiens with 4 samples.

Results

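The peaks described here are the γH2AX peaks of chromosome 19 that lie away from its ends. They were taken from the peak lists of 4 chromatin immunoprecipitation and sequencing (ChIP-seq) libraries of SK-UT1, a human cell line from a uterine leiomyosarcoma, a cancer of smooth muscle. γH2AX is the histone variant H2A.X phosphorylated on its tail, a mark laid down on chromatin around DNA breaks and read by repair factors. The vehicle control was DMSO at 0.1%. OTS186935, which blocks SUV39H2, a methyltransferase of histone H3 lysine 9, was given at 1 µM. Doxorubicin, which traps topoisomerase II on DNA, was given at 0.5 µM, and the combination joined both drugs at these doses. Each condition had 1 library of this 1 cell line, so no difference between conditions was tested, and the exposure time is not given in the sources used here.

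A peak belonged to the set when its midpoint on chromosome 19 was more than 1 Mb from either end of the chromosome, after overlapping or touching rows of a list had been merged. This gave 3366 of 72858 DMSO peaks, 2772 of 59710 OTS186935 peaks, 1944 of 47495 doxorubicin peaks and 1130 of 29213 combination peaks. The interval of 56.6 Mb makes up 1.87% of the length of chromosomes 1 to 22 and X. It held 4.62%, 4.64%, 4.09% and 3.87% of all peaks in that order of libraries. The chromosome was proposed for description with its high peak density already known, so that density is given as a description.

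Chromosome 19 is the most gene-rich human chromosome for its size, and a large part of it is taken up by tandem clusters of zinc finger genes. Most of these genes encode KRAB zinc finger proteins, which bind DNA and recruit TRIM28 and histone H3 lysine 9 methyltransferases to repeats. In many cell types the clusters themselves carry trimethylated histone H3 lysine 9, most strongly over the exons at the 3′ end of the genes that encode the zinc fingers. A zinc finger cluster was defined here as a run of at least 5 such genes with gaps of at most 250 kb. The 12 clusters of the interval cover 11.6 Mb, 20.4% of its length, and hold 203 zinc finger genes and 56 other protein-coding genes. The remaining 45 Mb is called other space.

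After joining the peaks of the 4 libraries, 400 of 5235 regions (7.64%) had a peak in all of them, against 7.36% over all chromosomes. Of these 400, 23 (5.75%) covered the annotated start of a gene, against 2.92% of all regions. They covered 25 starts, 7 of them in zinc finger genes, which hold 191 of the 1120 listed starts of the interval. A region joined from more peaks can be wider and so cover a given base more often, and region widths were not compared. Within 1 kb of a start the shares were closer, 7.5% and 6.04%. The 250 bases upstream of 6 of these starts are printed 5′ to 3′ on the gene's strand, to show the sequence next to starts that were covered in all libraries. The joined region holds only a part of some of these windows. They are the 3 zinc finger genes and the 3 other named genes whose weakest peak over the libraries had the highest fold enrichment. Sequences and positions are from RefSeq, GRCh38.p14, and capitals mark the GC box GGGCGG or its reverse complement CCGCCC.
ZNF177, chr19:9362763-9363012, plus strand: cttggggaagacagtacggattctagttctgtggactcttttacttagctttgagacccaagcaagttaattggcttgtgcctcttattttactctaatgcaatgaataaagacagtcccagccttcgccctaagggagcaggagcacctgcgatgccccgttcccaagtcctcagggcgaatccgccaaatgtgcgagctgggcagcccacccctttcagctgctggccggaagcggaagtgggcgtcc
ZIK1, chr19:57583895-57584144, plus strand: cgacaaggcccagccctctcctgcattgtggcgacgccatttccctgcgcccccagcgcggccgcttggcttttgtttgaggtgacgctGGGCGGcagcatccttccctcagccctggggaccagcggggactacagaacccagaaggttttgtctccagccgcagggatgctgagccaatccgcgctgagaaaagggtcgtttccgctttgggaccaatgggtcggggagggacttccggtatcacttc
ZNF540, chr19:37551124-37551373, plus strand: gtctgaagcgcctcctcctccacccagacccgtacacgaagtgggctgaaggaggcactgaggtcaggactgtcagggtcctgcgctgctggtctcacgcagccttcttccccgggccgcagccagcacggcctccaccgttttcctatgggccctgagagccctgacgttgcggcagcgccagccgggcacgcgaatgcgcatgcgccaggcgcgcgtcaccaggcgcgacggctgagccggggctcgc
KLK9, chr19:51009593-51009842, minus strand: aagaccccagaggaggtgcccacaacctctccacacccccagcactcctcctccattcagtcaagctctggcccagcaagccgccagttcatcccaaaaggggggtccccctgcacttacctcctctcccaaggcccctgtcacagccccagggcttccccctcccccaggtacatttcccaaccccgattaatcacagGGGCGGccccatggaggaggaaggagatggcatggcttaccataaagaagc
TEKTL1, chr19:15010476-15010725, plus strand: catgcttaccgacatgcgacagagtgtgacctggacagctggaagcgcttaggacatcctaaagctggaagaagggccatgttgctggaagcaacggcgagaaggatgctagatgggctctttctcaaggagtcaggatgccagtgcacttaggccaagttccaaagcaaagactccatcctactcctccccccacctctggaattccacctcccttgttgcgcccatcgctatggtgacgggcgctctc
VAV1, chr19:6772458-6772707, plus strand: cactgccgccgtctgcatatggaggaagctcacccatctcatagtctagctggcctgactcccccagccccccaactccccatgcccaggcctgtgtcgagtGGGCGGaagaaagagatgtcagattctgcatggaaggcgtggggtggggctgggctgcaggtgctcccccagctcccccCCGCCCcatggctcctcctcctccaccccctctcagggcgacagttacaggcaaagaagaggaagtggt

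These promoters differed widely in base composition. ZNF177 had a GC content of 54% with 10 CpG dinucleotides in the 250 bases, whereas ZNF540 had 69.6% with 25. KLK9, a kallikrein protease gene, had 61.2% with 3 CpG. The GC box was found in 50% of the 34 promoters, taken from 250 bases before to 50 after the start, of genes with a peak within 1 kb of the start in all libraries. It was found in 67.9% of the 753 chromosome 19 promoters with no such peak, and in 58.5% of the 15811 promoters of the whole table. The median GC content of these sets was 62%, 62.7% and 62.7%. The share of 50% came from only 17 of the 34 promoters, and on the rest of the genome the order was reversed. There the GC box was in 62.8% of 852 promoters with a start peak in all libraries and in 51.3% of 8751 with none. On the rest of the genome, promoters with a start peak in any library had a median GC content of 65.7% against 60% for those without, while on chromosome 19 the values were 63.7% and 62.7%. The capitals are matches of letters, not known binding sites, and no match says only that these letters are not in the window.

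Peaks filled chromosome 19 unevenly. Across 56 full bins of 1 Mb, the number per bin with DMSO ran from 0 to 104 with a median of 64. The treated libraries had medians of 53 (OTS186935), 35.5 (doxorubicin) and 22 (combination), and the highest bins held 83, 58 and 34. The densest bin in DMSO, from 17 to 18 Mb on the short arm, held 104 peaks with DMSO, 58 with doxorubicin and 34 with the combination, and it was also the densest in both of these treated libraries. It contains 33 protein-coding genes and no zinc finger gene. The bins from 18 to 19 Mb, with 100 peaks in DMSO, and from 35 to 36 Mb, with 101 and 49 protein-coding genes, followed it.

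The emptiest bins lay around the centromere. No library had a peak between 25 and 27 Mb. The bin from 24 to 25 Mb held 7 peaks in DMSO and the bin from 27 to 28 Mb held 6. Next to them, the bins from 20 to 24 Mb, which hold the largest zinc finger cluster, had 22, 20, 30 and 28 peaks in DMSO. On the other side, gene-poor sequence from 28 to 29 Mb had 23. The long-arm bin from 52 to 53 Mb, which lies wholly inside a zinc finger cluster and holds 22 zinc finger genes, had 27 peaks in DMSO, 16 with doxorubicin and 10 with the combination.

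**Figure D1:**
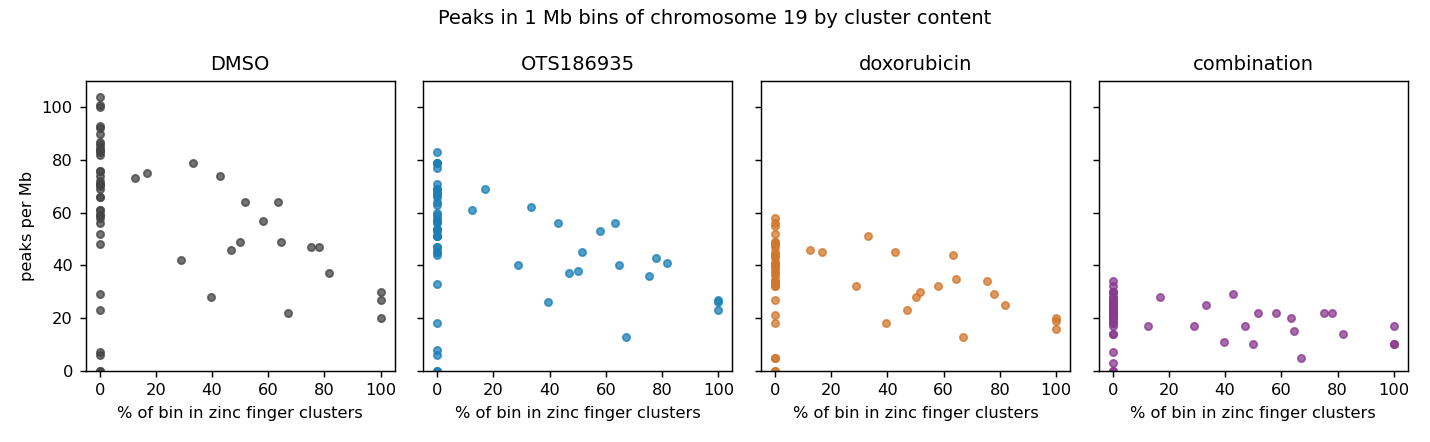
Peaks per Mb in each of the 56 full 1 Mb bins (1 point each) against the percent of the bin that lies in zinc finger clusters, 1 panel per library. In DMSO the 12 bins with more than 50% of their length in clusters sit between 20 and 64, while the 37 bins with none reach 104 and include the 2 empty ones.

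Bins with more than 50% of their length in clusters had fewer peaks than bins without clusters in each library. Their median was 47 against 71 in DMSO, 39 against 57 for OTS186935, 28.5 against 40 for doxorubicin and 16 against 22 for both drugs. Over the 54 bins with any peak, the number of DMSO peaks had a Pearson correlation of -0.50 with the percent in clusters and 0.72 with the number of protein-coding genes. With the combination these were -0.41 and 0.59. The profile along the chromosome was alike between libraries, with Pearson correlations of 0.93 between DMSO and OTS186935, 0.92 between DMSO and doxorubicin and 0.88 between DMSO and the combination. These correlations are across bins of 1 chromosome that share base composition, gene content and copy number, and they carry no test.

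Zinc finger clusters held fewer peaks per Mb than other space in every library. With DMSO there were 438 peaks in clusters, 37.9 per Mb (95% Poisson interval 34.4 to 41.6), and 2928 in other space, 65 per Mb (62.7 to 67.4). With OTS186935 the densities were 32.2 per Mb (29 to 35.7) and 53.3 per Mb (51.2 to 55.5). With doxorubicin they were 23.9 per Mb (21.2 to 26.9) and 37 per Mb (35.3 to 38.8), and with the combination 15.6 per Mb (13.4 to 18.1) and 21.1 per Mb (19.8 to 22.5). Cluster density was thus 0.582, 0.605, 0.647 and 0.742 times that of other space. The rest of the genome had 23.3, 19.1, 15.3 and 9.43 peaks per Mb, below both kinds of space. Intervals cover counting error only and assume that peaks fall independently, which neighbouring peaks may not.

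Leaving out the bins that hold no peak put the ratio at 0.556, 0.578, 0.618 and 0.709. Leaving out the 2 clusters nearest the centromere put it at 0.653, 0.68, 0.711 and 0.813. On the short arm, clusters had 32.3 and other space 71.9 peaks per Mb in DMSO, and on the long arm 42.5 and 65.1. The lower density of clusters was therefore present on both arms.

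In DMSO, clusters and other space differed in gene bodies and not detectably between genes. Bodies of protein-coding genes in other space had 91.3 peaks per Mb with DMSO (interval 87.5 to 95.2) and 73.1, 51.6 and 29.3 in the treated libraries. Bodies of zinc finger genes inside clusters had 32 (27.5 to 36.9), 29.5, 21.5 and 9.95. The few other protein-coding genes inside clusters, 0.804 Mb in all, had 75.9 (58.1 to 97.5), 59.7, 46 and 33.6, near the level of genes elsewhere on the chromosome. Between protein-coding genes, clusters and other space had similar densities in DMSO, 38.5 (33.3 to 44.3) and 35.7 (33.2 to 38.3). With the combination, space between genes had 19.2 (15.6 to 23.5) in clusters and 11.9 (10.5 to 13.5) elsewhere. The values for other space between genes include the empty bins from 25 to 27 Mb, which lower them in each library.

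**Figure D2:**
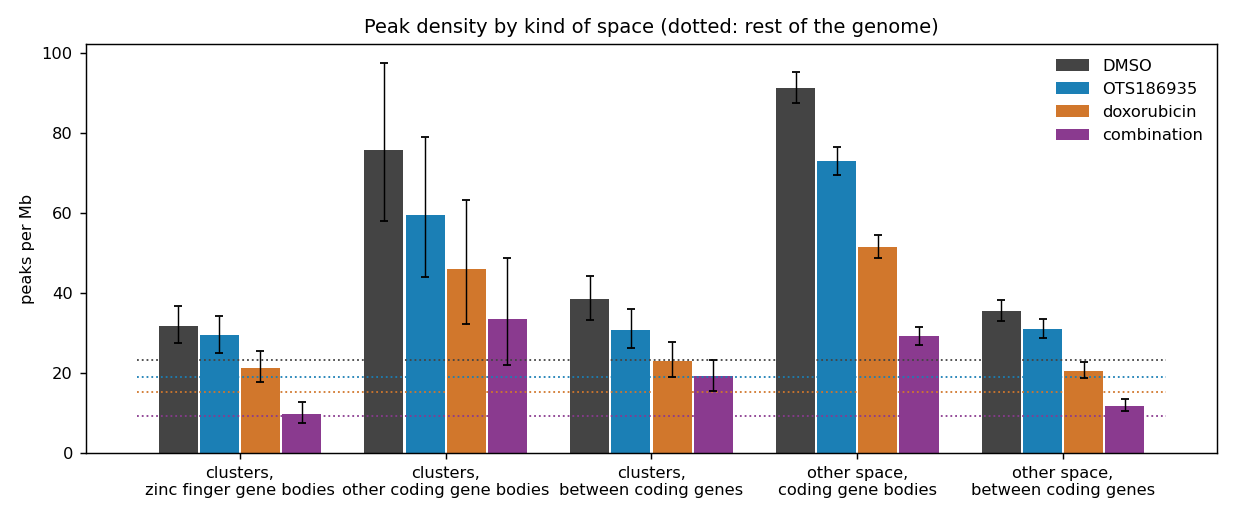
Peaks per Mb in 5 kinds of space on chromosome 19, 1 bar per library, with exact 95% Poisson intervals, and the rest of the genome as dotted lines. Gene bodies of other space reach 91.3 in DMSO, while zinc finger gene bodies stay at 32 and space between genes at 38.5 in clusters and 35.7 elsewhere. The last kind of space includes the empty bins from 25 to 27 Mb.

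Clusters also differed among themselves. The largest, from ZNF737 to ZNF91 (chr19:20530276-23395471), had 23 peaks per Mb in DMSO (interval 17.8 to 29.3) and 22.7, 16.1 and 11.2 in the treated libraries. It spans 2.87 Mb with 25 zinc finger genes, or 8.73 per Mb, and has no other protein-coding gene. At the other extreme, the compact cluster from ZNF628 to ZNF580 (chr19:55476617-55645623) had 130 per Mb (81.6 to 197), 107, 94.7 and 41.4, from 22, 18, 16 and 7 peaks, and it holds 7 zinc finger genes and 5 others in 0.169 Mb. The remaining 10 clusters lay between 31 and 56 peaks per Mb in DMSO.

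With OTS186935, 3 clusters had more peaks than with DMSO. The cluster from ZNF565 to ZNF573 had 52 with DMSO and 57 with OTS186935, that from ZNF302 to ZNF792 had 9 and 12, and that from ZNF554 to ZNF77 had 7 and 10. Their Poisson intervals overlapped in each case. The cluster from ZNF575 to ZNF180 had 47 peaks with DMSO and 18 with doxorubicin, and that from ZIM3 to ZNF446 had 26 and 10. All clusters together had 438 and 277, or 63.2% of the DMSO number. The number of combination peaks in a cluster was between 31.8% and 55.6% of its DMSO number.

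Other tandem gene families of the chromosome did not share 1 level. In DMSO, the SIGLEC receptors of immune cells had 94.9 peaks per Mb (interval 70.4 to 125) over their span, and the kallikrein proteases had 86.8 (55 to 130). The KIR and LILR immune receptors had 58.4 (41.3 to 80.1), olfactory receptors 52.8 (37 to 73.1), and the drug and lipid oxidising CYP2 and CYP4F enzymes 49.3 (35.1 to 67.5). The CEACAM and PSG adhesion molecules had 30.3 (20.6 to 43) and the NLRP inflammasome genes 22.6 (9.77 to 44.6), both below the 37.9 of the zinc finger clusters, with intervals that overlap it. With the combination these spans ranged from 8.79 per Mb at CEACAM and PSG to 34.2 at SIGLEC. The primate miRNA cluster C19MC with the neighbouring miR-371 genes, 0.122 Mb, had 5, 6, 1 and 1 peaks. Members of these families resemble each other closely, as do the genes of the zinc finger clusters, so the placing of reads among them is uncertain. Whether this bears on the peak densities was not tested.

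The local background under the peaks separated the kinds of space more than the peaks themselves. It is the fragment level around each peak, solved from its fold and p and given in multiples of the library's commonest background, its floor. Peaks in other space had a median background of 4.23, 4, 3.88 and 3.36 times the floor, from DMSO through OTS186935 and doxorubicin to the combination. Peaks in clusters had 1.39, 1.35, 1.52 and 1.66, and those on the rest of the genome 1.5, 1.55, 1.6 and 1.7. The summit rose to a median of 12 fragments in other space with DMSO and 7 in clusters, with a median fold of 4.05 and 4.48. Peaks were of like width, with medians of 491 and 473 bp. By bin, the median background in DMSO ran from 1 times the floor in the bins from 20 to 21 and 23 to 24 Mb to 11.7 times between 1 and 2 Mb. Input was not analysed here, and what part copy number, base composition or γH2AX has in this background was not tested.

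Strong peaks, those whose −log10 q reached at least 5, thinned out most in other space. Over all chromosomes 25.6% of DMSO peaks, 17.7% of OTS186935 peaks, 10% of doxorubicin peaks and 8.47% of combination peaks were strong. In other space 767 of 2928 (26.2%), 380 of 2399 (15.8%), 123 of 1667 (7.38%) and 41 of 949 (4.32%) were, the last 3 shares below those of the genome. In clusters the counts were 116, 72, 38 and 15, or 26.5%, 19.3%, 13.7% and 8.29% of their peaks. The number with the combination was 5.35% of the DMSO number in other space, 12.9% in clusters and 13.6% on the rest of the genome. Strong peaks were therefore denser in other space with DMSO, at 17 against 10 per Mb, and with OTS186935, at 8.44 against 6.22. With doxorubicin they were at 2.73 in other space and 3.28 in clusters, a ratio of 1.2 with an interval of 0.813 to 1.74. With the combination they were at 0.911 and 1.3, a ratio of 1.42 with an interval of 0.732 to 2.63, so neither order was larger than counting error.

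The number of peaks fell on chromosome 19 as it did elsewhere with OTS186935, and further with doxorubicin. With OTS186935 it was 82.4% of the DMSO number inside the ends and 81.9% on the rest of the genome. With doxorubicin it was 57.8% against 65.6%, and with the combination 33.6% against 40.4%. Clusters had 85.2%, 63.2% and 41.3% of their DMSO number and other space 81.9%, 56.9% and 32.4%. Clusters were thus closer to the rest of the genome than to their surroundings with the combination. With lists cut to equal length genome-wide, the interval still held 1439 DMSO, 1352 OTS186935, 1195 doxorubicin and 1130 combination peaks.

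Sharing between libraries was set against the whole genome, where 44.4% of DMSO peaks overlapped an OTS186935 peak, 35.1% a doxorubicin peak and 23.6% a combination peak. Inside the ends of chromosome 19 these shares were 48.5% (interval 46.8 to 50.2), 36.2% (34.6 to 37.8) and 21.9% (20.5 to 23.3). In clusters they were 46.6% (41.8 to 51.4), 36.1% (31.6 to 40.8) and 28.3% (24.1 to 32.8). In other space they were 48.8% (47 to 50.6), 36.2% (34.5 to 38) and 20.9% (19.5 to 22.5). The intervals of clusters and other space overlapped for both single drugs and did not for the combination. In the other direction, 59.1% of OTS186935 peaks, 63.2% of doxorubicin peaks and 65.7% of combination peaks of the interval overlapped a DMSO peak, against 54.3%, 54.1% and 59.3% over all chromosomes. Of combination peaks, 46.3% overlapped a doxorubicin peak, against 44.6% over all chromosomes.

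The share kept with the combination was higher in clusters among strong peaks. Of strong DMSO peaks, 60 of 116 in clusters (51.7%, 42.3 to 61.1) overlapped a combination peak, 267 of 767 in other space (34.8%, 31.4 to 38.3) and 41% on the rest of the genome. With OTS186935 these shares were 72.4% (63.3 to 80.3), 65.1% (61.6 to 68.4) and 64.6%, and with doxorubicin 56% (46.5 to 65.2), 51.2% (47.6 to 54.8) and 56.1%. Among peaks with −log10 q from 1 to 2, 13.8% (7.57 to 22.5) of cluster peaks and 9.15% (6.91 to 11.8) of other peaks were found with the combination.

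**Figure D3:**
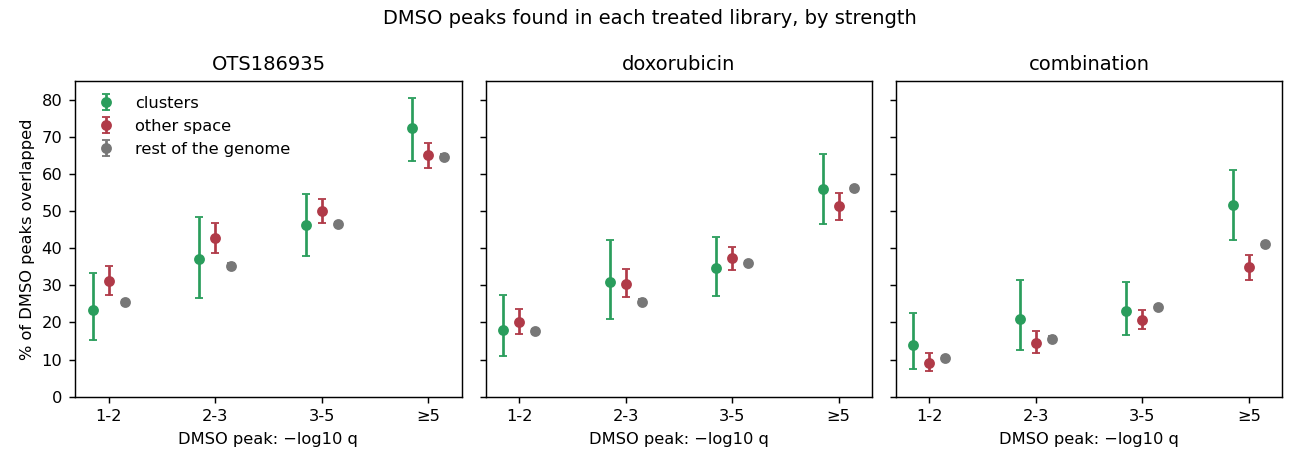
Percent of DMSO peaks overlapped by a peak of each treated library (1 panel each) in 4 classes of −log10 q of the DMSO peak, with exact 95% binomial intervals, for clusters, other space and the rest of the genome. In the combination panel the strongest class reads 51.7% in clusters and 34.8% in other space.

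Since background differed between kinds of space, shares were also compared within classes of background. Where the DMSO background was under 1.5 times the floor, 15.8% (11.4 to 21.1) of cluster peaks, 13.7% (10.5 to 17.3) of other peaks and 17.1% of peaks on the rest of the genome overlapped a combination peak. Between 1.5 and 3 times the floor these were 53 of 117 (45.3%, 36.1 to 54.8), 124 of 631 (19.7%, 16.6 to 23) and 34.4%. Between 3 and 5 times they were 48.8% (33.3 to 64.5), 27.6% (24.2 to 31.2) and 33.2%, and at 5 times or more 29.5% (16.8 to 45.2), 20.6% (18.3 to 22.9) and 23%. Other space read lower than the rest of the genome in each class, though its interval reached the value of the rest in the lowest class. Clusters read higher than the rest in the upper 3 classes, with an interval that held the value of the rest at 5 times or more. For OTS186935 the classes, from lowest to highest, read 31.6%, 61.5% (52.1 to 70.4), 65.1% (49.1 to 79) and 68.2% (52.4 to 81.4) in clusters. They read 32.9%, 44.7% (40.8 to 48.7), 57.1% and 52% in other space and 34.15%, 55.1%, 57.7% and 51.1% elsewhere. For doxorubicin they read 23.9%, 44.4%, 58.1% (42.1 to 73) and 56.8% (41 to 71.7) in clusters. Other space read 22.3%, 33%, 42.2% and 39.4%, and the rest of the genome 26.6%, 44.3%, 46.2% and 40.4%. The lowest class held 53.4% of the DMSO peaks in clusters. These classes were set after the data had been seen.

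**Figure D4:**
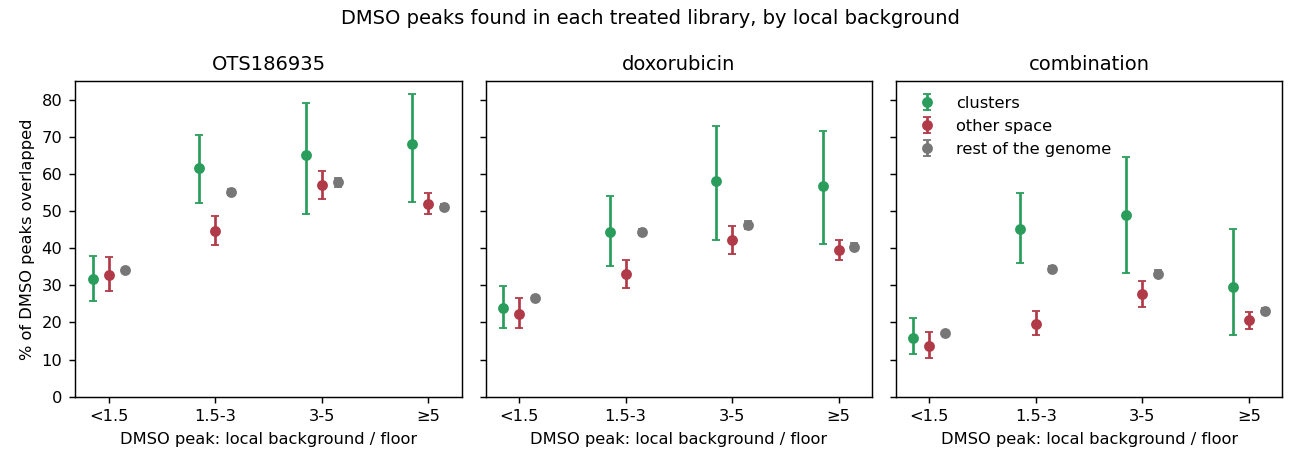
Percent of DMSO peaks overlapped by a peak of each treated library (1 panel each) by the local background of the DMSO peak in multiples of the floor, with exact 95% binomial intervals. From 1.5 to 3 times the floor, the combination panel shows clusters at 45.3%, other space at 19.7% and the rest of the genome at 34.4%.

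Joined over the libraries, the peaks of the interval formed 5235 regions. Regions called in 1 library made up 54.4%, against 58.4% over all chromosomes, and those called in all libraries 7.64% (interval 6.94 to 8.39), against 7.36%. In clusters, 73 of 724 regions were called in all libraries (10.1%, 7.99 to 12.5), and in other space 327 of 4511 (7.25%, 6.51 to 8.04), with intervals that overlap slightly. The commonest pattern was DMSO alone, with 1258 regions (24%, against 23.6% on the rest of the genome). It was followed by OTS186935 alone with 864 (16.5% against 16.4%) and DMSO with OTS186935 with 600 (11.5% against 9.08%). Doxorubicin alone came next with 484 (9.25% against 12.5%). The combination alone had 242 (4.62% against 6.13%). Regions with DMSO, OTS186935 and doxorubicin but not the combination numbered 466. This pattern made up 9.31% of regions in other space, 6.35% in clusters and 6.59% on the rest of the genome. Of regions in all libraries, 49.3% in clusters and 77.4% in other space overlapped a protein-coding gene body. For regions called in any library these shares were 57.9% and 72.1%.

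Regions called in all libraries lay about as far from gene starts as regions in general. Of the 400, 7.5% were within 1 kb of a start, with a median distance of 15700 bp, against 6.04% and 15168 bp for all 5235 regions. By the highest weakest fold, the first was chr19:37403213-37404436, 6720 bp from ZNF569 in a cluster, with fold enrichments of 6.49, 7.67, 7.41 and 6.56. A region inside INSR, the insulin receptor gene, had 8.1, 8.05, 7.27 and 6.05. A region 774 bp from CD33, a myeloid sialic acid receptor, had 10.4, 7.57, 5.82 and 6.91, from summits of 18, 10, 8 and 10 fragments. Regions near CEACAM21, ZNF599, OR10H2 and CYP2B6 and inside LYPD5 completed the first 8. Fold enrichment is the authors' value over local background, and its size ranks peaks within a list.

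In DMSO the highest fold, 10.7, was at chr19:29387397-29387911 between genes, 137506 bp from VSTM2B, with a doxorubicin peak of 2.87 and none with OTS186935 or the combination. A peak inside TDRD12, a gene of the germline piRNA pathway, had 10.1 in DMSO and 6.55 with doxorubicin. With OTS186935 the first was inside ZNF799 (9.71, and 7.19 in DMSO), followed by MRPS12, which encodes a mitochondrial ribosomal protein (9.52, and 8.12, 6.02 and 5 in DMSO, doxorubicin and the combination). Intergenic sequence by ZNF565 and SIGLECL1 and the hypoxia factor gene HIF3A came next. With doxorubicin the first was inside ZNF534 (8.84, none in DMSO). It was followed by sites 13411 bp from ZNF730 (8.64), 821 bp from ZNF180 (8.64, and 9.63 in DMSO) and 75188 bp from ZNF91, outside its cluster (8.62). With the combination the first was inside ZNF772, 235 bp past its start, with 6.4 in DMSO, 7.74 with OTS186935 and 8.64 with both drugs, but no doxorubicin peak.

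Some strong treated peaks had no counterpart in DMSO. With OTS186935 these included a site inside CD22, an inhibitory receptor gene of B cells, 519 bp past its start (7.87), and 1 inside SAMD4B (8.05, and 5.85 with doxorubicin). With doxorubicin they included ZNF534, a site inside ZNF91 (7.98, with 4.93 and 6.11 in OTS186935 and the combination) and 1 by ZNF235 (7.32, and 7.38 with OTS186935). With the combination they included 2 sites at TSHZ3, a developmental transcription factor gene, with 8.16 and 7.6, both also present with OTS186935 at 6.44 and 5.06 and the first with doxorubicin at 5.49, and a site 19474 bp from IL12RB1 (7.42) found in no other library. Conversely, DMSO peaks inside RFX2, a ciliary gene regulator (9.23), by ZNF350 (8.5) and by FEM1A (8.43) overlapped no treated peak. Summits of all these peaks held 20 fragments or fewer, so a missing peak may be one below detection at this depth.

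Within clusters, the strongest DMSO peak of each was found again with OTS186935 in 11 of 12 clusters, all but the one from ZNF101 to ZNF486. These peaks were picked for their strength. Of all 116 strong DMSO peaks in clusters, 72.4% overlapped an OTS186935 peak, 56% a doxorubicin peak and 51.7% a combination peak. In 5 clusters it was present in all libraries, among them the peak near ZNF599 (8.39, 7.61, 7.02 and 5.17) and that over the start of ZNF177 (8.85, 6.19, 5.65 and 5.87). The other 3 were near ZNF77, near ZNF579 and inside SMIM17. The peak near ZNF90 (8.25) was in DMSO alone. That over the start of AURKC, an aurora kinase gene of meiosis (8.55), had 6.99 with OTS186935 and 3.57 with doxorubicin and none with the combination.

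Gene ends of other space carried a peak more often than those of the rest of the genome in DMSO and with the single drugs, and gene starts less often in DMSO and with the combination. Over all 15811 genes with a listed start, 30.9%, 21.3%, 15.7% and 11% had a peak within 1 kb of the start in the 4 libraries, and 13.5%, 10.7%, 8.33% and 5.02% within 1 kb of the end. Of the 882 non-zinc-finger genes in other space, 25.9% (interval 23 to 28.9), 19.5% (16.9 to 22.3), 13.9% (11.7 to 16.4) and 7.14% (5.53 to 9.05) had a start peak. End peaks were found at 26.5% (23.6 to 29.6), 21.7% (19 to 24.5), 15.6% (13.3 to 18.2) and 6.24% (4.73 to 8.04) of them. On the rest of the genome, starts had 31.4%, 21.5%, 15.9% and 11.3% and ends 12.6%, 10%, 7.83% and 4.9%, values that the other-space intervals contain for starts with either single drug and for ends with the combination. The 882 genes have a median length of 12.6 kb, against 27.3 kb on the rest of the genome, while the windows have the same size for all genes. Whether gene length bears on these shares was not tested. Of 191 zinc finger genes, 41, 29, 11 and 11 had a start peak (21.5%, 15.2%, 5.76% and 5.76%) and 30, 20, 20 and 15 an end peak (15.7%, 10.5%, 10.5% and 7.85%).

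In other space, summits were denser just inside genes than just outside them. At the starts of the 882 other genes in DMSO, 143 summits lay in the first 1 kb of the gene and 53 in the 1 kb before it, or 162 and 60.1 per Mb. At their ends, 122 lay in the last 1 kb of the gene and 51 in the 1 kb beyond, or 138 and 57.8 per Mb. With doxorubicin the counts at the end were 95 inside and 21 beyond, with OTS186935 108 and 45, and with the combination 30 and 16. For genes of the rest of the genome in DMSO the densities were 208 and 77.7 per Mb inside and before the start, and 57.2 and 38.4 inside and beyond the end. Set against the level 5 to 10 kb away, summits within 1 kb of the start were at 111 against 83.2 per Mb in other space and 143 against 41.6 elsewhere, a ratio of 1.34 and 3.43. Those within 1 kb of the end were at 98.1 against 82.9 and 47.8 against 45.1, a ratio of 1.18 and 1.06. The higher level at gene ends on chromosome 19 thus came with a higher level in the sequence around them. At zinc finger genes the start had 86.4 against 32.5 per Mb in DMSO and 68.1 against 33 with OTS186935. With doxorubicin it had 28.8 against 25.7, and with the combination 28.8 against 10.5, from 11 summits each. With the combination 7 of these lay before the start and 4 inside. At the zinc finger gene ends, 11 summits lay inside and 11 beyond in DMSO, 5 and 7 with OTS186935, 11 and 3 with doxorubicin and 5 and 6 with the combination. These small counts show no common order.

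**Figure D5:**
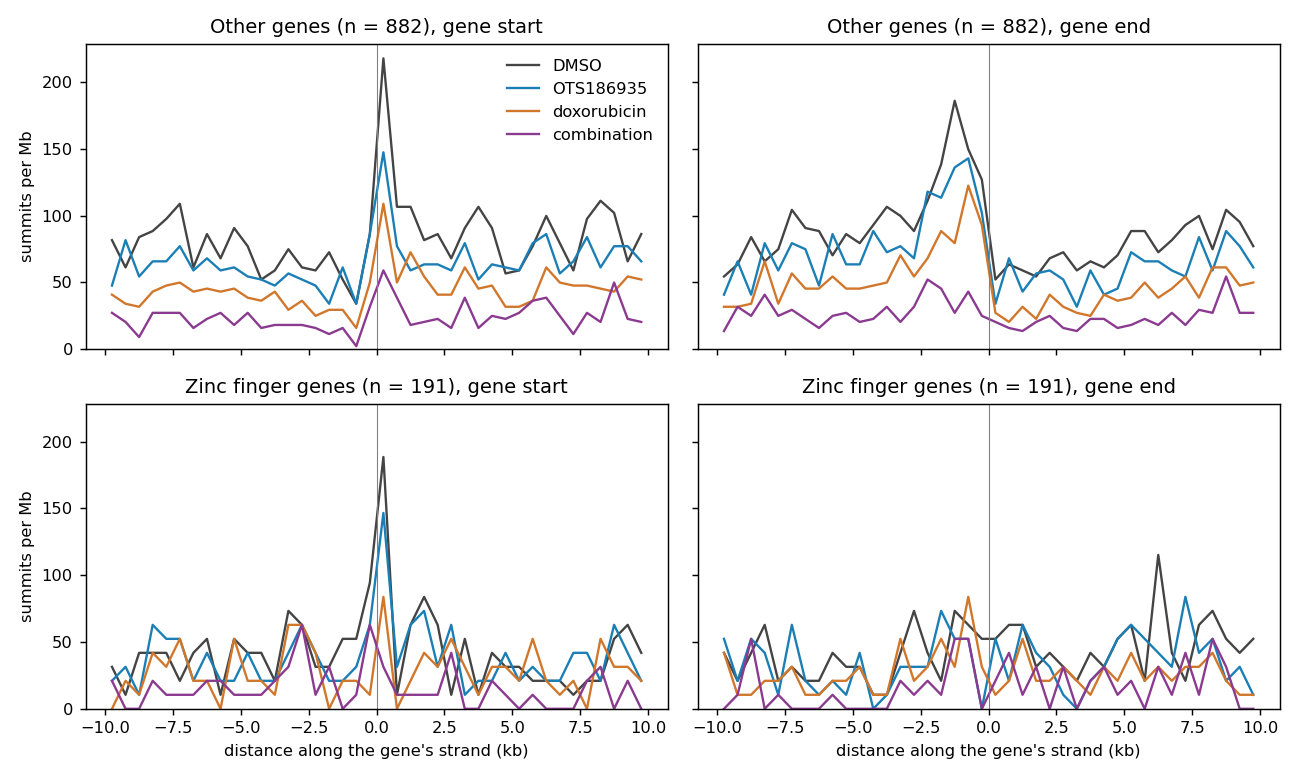
Peak summits per Mb in windows of 500 bp around gene starts (left) and gene ends (right), read along the gene's strand, for 882 other genes (top) and 191 zinc finger genes (bottom) of chromosome 19, 1 line per library. In DMSO other genes reach 218 per Mb in the first 500 bp and zinc finger genes 188, and in the window from 1500 to 1000 bp before the end they have 186 and 73.3.

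Gene lists of the chromosome were read against the share of all genes with a peak within 1 kb of either end, which was 39.5%, 28.9%, 21.9% and 14.9% in the 4 libraries. All 1120 protein-coding genes of the interval with a listed start had 43.3%, 33.7%, 24.2% and 13.3%. Zinc finger genes had 65, 47, 29 and 26 of 191, or 34%, 24.6%, 15.2% and 13.6%. Of the 191, 13 had a peak at either end in every library. The same count was not made for all genes, so these 13 have no background to be read against. The peaks of such a gene need not lie at the same site. That of ZNF541 was at the start only with OTS186935 and at the gene end only with the combination. Among the 13 were ZNF177, ZIK1 and ZNF667, with fold enrichments at ZNF667 of 5.84, 5.95, 4.77 and 3.24.

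A list of muscle-related genes had 11, 8, 2 and 2 of 17. It is wider than contractile genes: its counts include the transcription factor gene MYPOP (4.51 and 4.12 in DMSO and OTS186935), the growth factor gene TGFB1 (3.53, 5.34 and 5.09 in DMSO, OTS186935 and doxorubicin) and the myosin gene MYO9B (3.4 and 2.88 in DMSO and doxorubicin), which is not specific to muscle. CNN1, which encodes calponin of smooth muscle, had a peak of 5.2 in DMSO alone, and TPM4, a tropomyosin gene, had 5.77 and 4.73 in DMSO and OTS186935. RYR1, the muscle calcium release channel, had 4.42, 6.4 and 5.25 in DMSO, OTS186935 and the combination. Immediate early and stress genes had 7, 4, 3 and 0 of 14, with JUNB, a subunit of the transcription factor AP-1, at 4.05, 3.05 and 4.58 and none with the combination. The JUNB peak was at the start in DMSO, at the gene end with OTS186935 and at both with doxorubicin. Chromatin genes had 11, 4, 6 and 3 of 23. SAFB, a scaffold attachment factor, had a peak at one end or the other in every library (4.57, 3.68, 4.39 and 4.3), not at the same site. It was at both ends in DMSO, at the gene end with OTS186935 and doxorubicin, and at the start with the combination. UHRF1, which guides maintenance DNA methylation, had a peak in all but the combination (4.63, 4.76 and 4.39), and SMARCA4, the chromatin remodeller, in DMSO alone (5.51).

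DNA repair genes had 6, 2, 3 and 2 of 17. PWWP3A, a chromatin factor of the damage response, had a peak in every library (3.07, 2.6, 2.76 and 2.87). ERCC1 of nucleotide excision repair had 4.51 in DMSO and 3.51 with the combination, and LIG1, the replicative DNA ligase, had 4.97 with doxorubicin alone. Tumour genes had 11, 5, 4 and 2 of 20. Among them CCNE1, which encodes cyclin E1, had 5.47 in DMSO and 5.85 with doxorubicin, and CRTC1, a transcriptional coactivator, had 5.12 in DMSO, 4.39 with doxorubicin and 5.61 with the combination. Ribosomal protein genes had 2, 3, 0 and 0 of 9, with RPS19 at 4.42 at the start in DMSO and 5.97 at the gene end with OTS186935. The kallikreins had 6, 6, 5 and 2 of 13, with KLK9 in all libraries at 8.51, 5.48, 5.38 and 6.4. Several of these lists hold few genes, so a share moves by several percent with each gene.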

How the data were processed

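γH2AX was mapped in 4 SK-UT1 libraries, 1 per condition and 1 peak list each. Per the submitters' processing notes, MACS2 2.2.7.1 and Bowtie2 2.4.2 were among the tools, as were bedtools 2.30.0 and Picard 2.25.3, on hg38. The sources used here give no roles, calling options or input. Each summit's fold enrichment (a ratio), −log10 p, −log10 q and score were used as the authors deposited them; depth was not analysed here. Rows that overlapped or touched were merged, keeping the highest values. The chromosome end was the last annotated base. Zinc finger symbols started with ZNF, ZFP, ZSCAN, ZKSCAN, ZIK or ZIM and a digit, so the mRNA decay gene ZFP36 is included; extents came from RefSeq, GRCh38.p14, without exons. Starts and strands were listed for 218 of 252 zinc finger genes and 1185 of 1451 protein-coding genes of the chromosome.

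Summit pileup and background were solved from the fold and the Poisson −log10 p, with a match within 0.002 for 100% of peaks. The floors were 0.454, 0.397, 0.389 and 0.428 fragments in the order DMSO, OTS186935, doxorubicin, combination, and the lowest listed −log10 p were 2.74, 2.81, 2.92 and 3.08, so detection limits differ. An overlap of 1 bp or more made a peak shared. Intervals are exact 95% Clopper-Pearson or Poisson intervals. The interval, cluster rule, gene lists and named sites (highest fold per library, highest weakest fold over all libraries, strongest per cluster, strongest without a DMSO or treated counterpart, list members called in most libraries, plus some picked after their values were seen) were chosen with earlier results of these data known. Overlaps and pileups were tested on simulated data. Python 3.11.15, pandas 2.3.3 and scipy 1.17.1 were used.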

Additional observations from a re-analysis of the deposited data

How the results depend on the processing

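No paired analysis was possible because each condition had 1 library. Without replicates, all limits concern counting error and list depth, and values are ordered DMSO, OTS186935, doxorubicin, combination. With only peaks of −log10 q 5 or more, the interval held 883, 452, 161 and 56 peaks. Their share in clusters was 15.9%, 23.6% and 26.8% in the treated libraries, and the density ratio of clusters over other space 0.737, 1.2 and 1.42. The last 2 ratios lie above 1 with intervals of 0.813 to 1.74 and 0.732 to 2.63, which hold 1; the cause was not tested. With these lists, 31%, 22.4% and 6.03% of DMSO peaks in clusters and 21.6%, 9.13% and 2.87% in other space were found again in the treated libraries. With lists of equal length the interval held 1439, 1352 and 1195 peaks in the first 3 libraries. Then 48.6%, 41.9% and 43.6% of cluster DMSO peaks were found in the treated libraries, against 46.6%, 36.1% and 28.3% with the full lists. Of other-space DMSO peaks 40.2%, 35.7% and 30.3% were found, against 48.8%, 36.2% and 20.9% with the full lists. Cluster gaps up to 100 kb gave a share in clusters of 8.47%, 9.45%, 9.52% and 9.65%, and a ratio of 0.626 with the combination. Gaps up to 500 kb gave 15.9%, 16.4%, 17.3% and 19.5%. A reciprocal overlap of 50% gave 39.7%, 28.3% and 22.4% for clusters and 40.1%, 27.6% and 15% for other space. The density ratio with all its alternatives, and every value without the 2 clusters nearest the centromere, were chosen after seeing the data. Without those clusters the ratio was 0.653 with DMSO and 0.68 with OTS186935. Over all alternatives, 95 values stayed close to the main value (a count within 1.5 times, a share or ratio within the main value's interval), among them all those from a common lowest −log10 p, from joining peaks within 1 kb and from leaving out 2 Mb at either end. Depth was not analysed here, so a peak missing from a list may lie below its detection limit.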
